A study of Mus musculus with 6 samples.

Results

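The genes of the cytosolic ribosomal proteins were examined in RNA-seq of mouse lung mesenchymal stromal cells (LMSCs) from 3 stages of mammary tumor development. Members were taken by symbol: every listed gene named as a protein of the small or large subunit, plus the stalk genes Rplp0, Rplp1 and Rplp2 and the laminin receptor gene Rpsa, leaving out symbols that mark a pseudogene and the S6 kinases. This gave 84 of the 34745 genes listed, 33 of the small subunit, 48 of the large subunit and 3 of the stalk. In the GENCODE M21 annotation of GRCm38, 83 of them were protein-coding and Rps4l was a transcribed processed pseudogene.

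The LMSCs came from MMTV-PyMT mice, in which the polyoma middle T oncogene is driven by the mouse mammary tumor virus promoter and mammary tumors spread to the lungs. A-LMSCs were from the adenoma stage (mice of 6 to 7 weeks by the labels), PM-LMSCs from the pre-metastatic stage (9 to 10 weeks) and M-LMSCs from the metastatic stage (13 to 14 weeks), so that stage and age cannot be told apart. The labels name the first 2 stages E-LMSCs and L-LMSCs, and the study's methods give slightly older mice for them. No treatment is named and tumor-free mice were not analysed here. All cells were plastic-adherent, CD45-depleted cultures at passage 3, with 2 libraries per stage. Values were FPKM, fragments scaled by the length of the gene and the size of the library. Depths estimated from the spacing of low values were 14800000 to 20800000 fragments per library, and FPKM totals were 258249 to 271408.

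The stromal labels were checked against marker genes. Fibroblast and stromal markers summed to 3281 to 4640 FPKM, and the endothelial list to 2.97 to 5.63 FPKM. In M-LMSCs against A-LMSCs, 3 of the 16 stromal genes were higher and 0 lower at an unadjusted limma p under 0.05. Over all genes these shares were 7.68% and 6.96%. With the replicate number as a block, Dcn and Lum were called higher, as was Kdr of the 2 endothelial genes tested (3.92% of all genes were called). Ptprc, which encodes CD45, was at 0.0254 to 0.0987 FPKM in every library. The summed haematopoietic list was 137 and 129 FPKM in A-LMSCs, 174 and 79.7 in PM-LMSCs, and 412 and 300 in M-LMSCs, mostly from the lysozyme gene Lyz2. Of its 14 genes, 7 reached the filter used for testing and 1 was listed at 0 throughout. All 7 were higher at the M than at the A stage with an unadjusted limma p under 0.05 (7.68% of all genes were). After adjustment 0 passed (0.0681% of all genes did). With the replicate number as a block 6 passed, where 234 of the 10279 genes tested were called higher. The mesothelial list summed to 144 and 203 FPKM at the A stage and to 229 to 547 later. With the block, 6 of its 11 tested genes were called higher at the M than at the A stage, against those 234 of all 10279. Krt19, a keratin on this list, went the other way (13.8 and 17.3 FPKM in A-LMSCs, 4.92 and 4.49 in M-LMSCs) and was the only one called without the block (log2 fold change -1.53, adjusted p = 0.0395, limma). The epithelial and tumor list summed to 16.5 to 29.5 FPKM. Of its 3 tested genes, Krt8 and Krt18 were called higher than in A-LMSCs at both later stages, with the block only. Over the 10279 genes tested, 27 (PM-LMSCs) and 234 (M-LMSCs) were called higher with it. The other tested gene was Krt19, which is on this list too and was lower at both stages (log2 fold changes -0.77 and -1.53). Epcam was listed at 0 in A-LMSCs and PM-LMSCs and at 0.326 and 0.473 FPKM in M-LMSCs. The part of these shifts in the ribosomal protein results was not tested.

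A cytosolic ribosome is built of ribosomal RNA and 1 copy of most of these proteins, the stalk proteins P1 and P2 being carried as dimers on P0. The small subunit reads the mRNA, the large subunit forms peptide bonds, and the stalk recruits the elongation factors. Their mRNAs are among the most abundant of growing cells, begin with a run of pyrimidines through which mTOR and Larp1 control their translation, and have given rise to many intronless copies by reverse transcription. Some of the proteins also act outside the ribosome, as Rpl5 and Rpl11 do when they bind Mdm2.

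The start of a ribosomal protein mRNA is shown first, because it is a feature known of these mRNAs that the choice by symbol did not use. RefSeq promoters (250 bases before to 50 after the annotated start, GRCm38.p6) were matched for 63 of the 84 members. A cytosine at the annotated start followed by at least 4 more pyrimidines was found in 13 of the 63 (20.63%), against 3.004% of the 26994 genes with such a promoter. In the windows below, 15 bases before and 15 from the start, capitals mark the run of pyrimidines from the start on.
Rps6, chr4:86857353-86857382, minus strand: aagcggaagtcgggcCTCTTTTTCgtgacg
Rpl28, chr7:4792950-4792979, plus strand: ccgcctctcgtgtctCTCTTTCCgtctccg
Rpl35, chr2:39005117-39005146, minus strand: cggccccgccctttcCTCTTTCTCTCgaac
Rps10, chr17:27635230-27635259, minus strand: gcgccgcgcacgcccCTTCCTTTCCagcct
Rplp2, chr7:141447636-141447665, plus strand: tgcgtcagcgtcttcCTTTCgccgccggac
Rps27, chr3:90213634-90213663, minus strand: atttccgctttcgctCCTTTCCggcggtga

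CTTTCC on the plus strand within 30 bases of the start was in 12 of the 63 promoters (19.05%, against 3.397% of all), and overlaps the pyrimidine run in some of them. CCGGAAG, the core of an ETS site, searched on both strands, was in 26 (41.27% against 9.924%). AAGATGGC, the core of a YY1 site, on both strands, was in 6 (9.524% against 3.182%). TATAAA between 40 and 10 bases before the start was in 1 (1.587% against 2.512%). These counts describe letters in annotated windows, whose starts can be some bases off the real start.

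As listed, the members spanned a wide range of levels, although their proteins are needed in near equal amounts. Rplp1, a stalk protein, was highest with a mean of 1988 FPKM over the 6 libraries, followed by Rpl8 (1266), Rpl13a (1004) and Rpsa (945). The 10 highest members held 65.0% of the members' summed FPKM. In all, 3 members had a mean of at least 1000 FPKM, 22 lay between 100 and 1000, 35 between 10 and 100, 18 between 1 and 10, and 6 under 1. The median was 33.5 FPKM, with 76.2 for the small subunit, 22.4 for the large subunit and 522 for the stalk. Among the 78 members with a mean of at least 1 FPKM, which entered the tests, the highest was 1181 times the lowest.

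The lowest members were of 2 kinds. Rpl10l was listed at 0 in all libraries, and Rpl3l (mean 0.0764 FPKM) and Rpl39l (0.0929) were close to it. These are paralogs known from testis or striated muscle. Rps13 (0.313), Rpl9 (0.719) and Rps18 (0.872), by contrast, are core ribosomal proteins, and so are Rpl11 (1.68) and Rps27 (1.85), the members just above the filter.

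**Figure D1:**
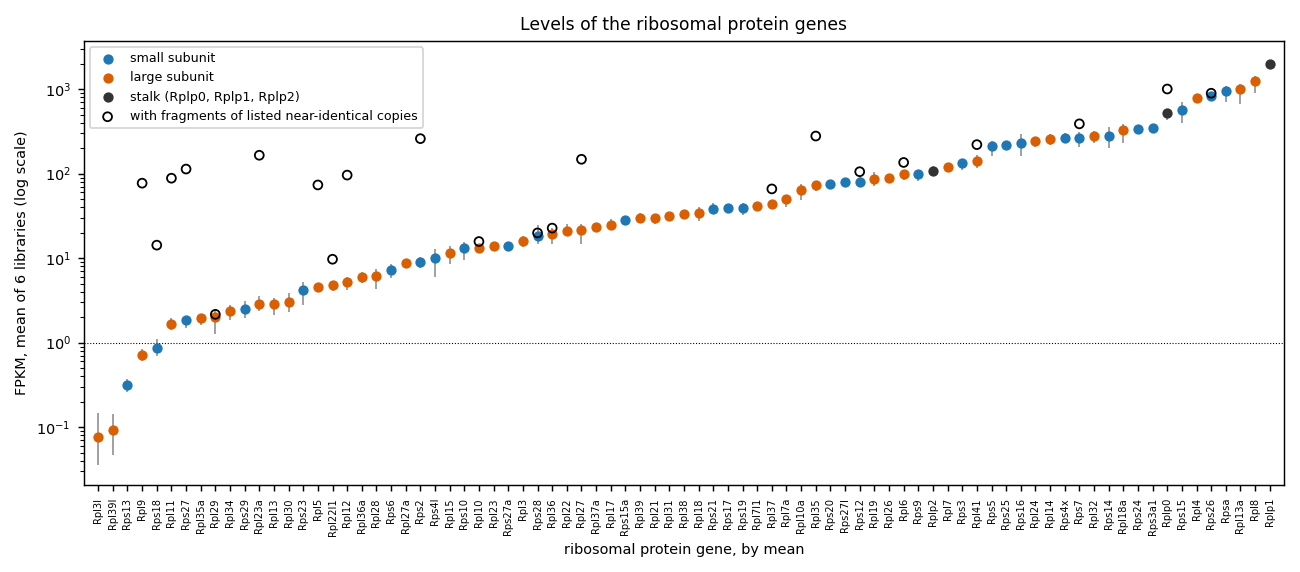
Mean FPKM over 6 libraries on a log axis for the members with a value above 0, in order and with 2 of them not shown, with grey lines from the lowest to the highest library and open circles for the level once the fragments of listed near-identical copies were added. Rplp1 lies at 1988 FPKM, and Rpl9, Rps18, Rpl11, Rps27, Rpl23a, Rpl5, Rpl12 and Rps2 lie low as listed and much higher with their copies.

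Some low core members had a near-identical copy with a high value, while others, Rps13 among them, had no listed copy. A search of each member's mRNA against all annotated transcripts (blastn, at least 95% identity over at least 200 bases) found a copy for 76 of the 84, 607 copies in all, of which 593 were annotated as pseudogenes. Rpl21 had the most, 61. Only 48 of the copies were listed, and 29 of these had a mean of at least 1 FPKM. For each member, fragments (FPKM multiplied by exon length) were summed over its own row and the 45 listed copies of which the match covered at least 40% of the exons.

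The gene's own row held under 10% of that sum in 8 members, under 50% in 12 and under 90% in 20. Rpl9, a large subunit protein, held 0.931%, with the rest in Rpl9-ps6 at a mean of 330 FPKM. Rps27, a zinc finger protein of the small subunit, held 1.63% beside Rps27rt at 311 FPKM, and Rpl23a, near the exit of the peptide tunnel, 1.72% beside Rpl23a-ps3 at 294 FPKM. Rpl11 held 1.91%, beside Gm10036 at 437 FPKM. Rps2 (3.48%), Rpl12 (5.41%), Rps18 (6.12%) and Rpl5 (6.12%) were the others. With copies added, the median over the members was 69.8 FPKM in place of 33.5, and 16 members in place of 24 were under 10 FPKM. The exon length used was that of all annotated exons of a gene merged. It need not be the length behind the FPKM of genes with several transcripts, so the summed levels and shares of fragments are estimates. How the processing assigned a fragment that matches a gene and its copy is not given in the sources used here, so for these members the row of the gene is not a measure of its mRNA alone.

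Sequences over exon junctions are shown because the bases there can be the same in the gene and its copy. For each member the coding junction with the fewest mismatches to the copy was taken. Each run below is 30 bases of the member's mRNA around an exon junction (GENCODE M21, GRCm38), with the 3 bases on either side of the junction in capitals, and the same 30 bases occur without a gap in the copy.
Rpl12, exons 1 and 2: acgaggtcaaagTCGTGTacctgaggtgca
Rpl9, exons 2 and 3: acattccagagaATGTCGaaatcactctga
Rps27, exons 2 and 3: acgtgaaatgccCAGGATgctataaaatca
Rpl23a, exons 1 and 2: aagcgaagaaggAAGCTCctgcccctccca
Rpl5, exons 2 and 3: ttcgaaggcggcGAGAGGgtaaaactgact

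In the genome the Rpl12 junction skips an intron of 209 bases (chromosome 2, plus strand, from base 32961839 to base 32962049), whereas Gm10275 holds it unbroken on chromosome 10 (29698746 to 29699380, minus strand). The Rpl12 row had 5.23 and 6.03 FPKM in A-LMSCs, 4.90 and 5.61 in PM-LMSCs and 4.17 and 5.29 in M-LMSCs. Gm10275, identical to it over 634 bases, had 525 and 600, 459 and 536, and 437 and 537 FPKM. Both rows had their lowest value in M-LMSC replicate 1. The skipped introns were 91 bases for Rpl9, 148 for Rps27, 532 for Rpl23a and 82 for Rpl5. Among coding junctions, 5 of 5 were identical in the copy for Rpl12, 4 of 5 for Rpl9, 2 of 2 for Rps27, 3 of 3 for Rpl23a and 6 of 6 for Rpl5. Rpl29 and Rps6 also have many copies in the genome (32 and 11), but the listed ones among them added little: the Rpl29 row held 94.1% of its sum, and no copy of Rps6 was listed. Rpl8 had no copy at all at these settings.

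**Figure D2:**
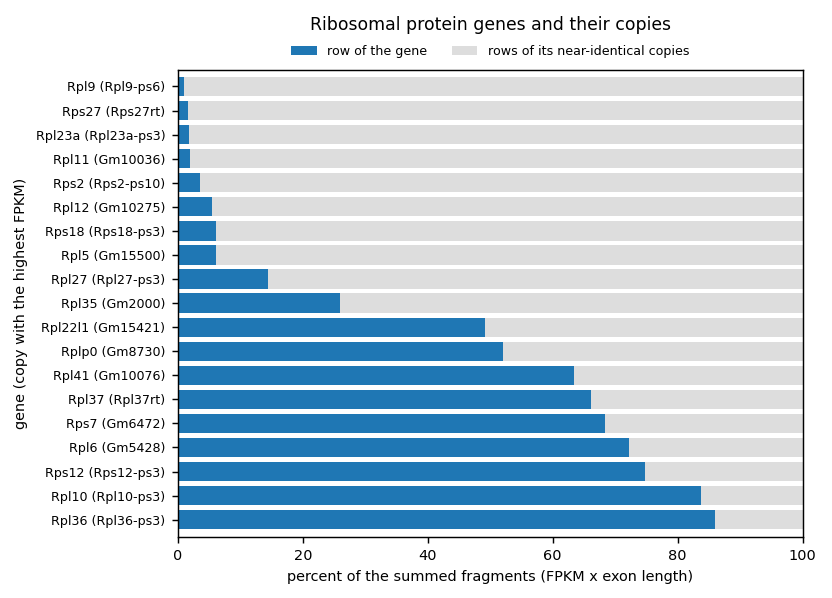
Share (%) of the summed fragments held by the row of the gene (blue) and by the rows of its near-identical copies (grey), for the members whose own row held under 90% (1 of the 20 is not shown), with the highest copy in brackets. The bars run from 0.931% for Rpl9 upward, and 8 of them are under 10%.

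The members together took 5.58% and 5.65% of the FPKM total in A-LMSCs, 5.16% and 5.66% in PM-LMSCs and 4.51% and 5.28% in M-LMSCs. Both M-LMSC libraries lay below both A-LMSC libraries, and the PM-LMSC libraries overlapped with each of the other stages. With copies added, the shares were 7.97% and 8.11%, 7.42% and 8.13%, and 6.45% and 7.71%, in the same order. With 2 libraries per stage no exact permutation test of a single value can pass, and none was run. In such bulk samples, fewer cells of a type and less RNA per cell cannot be told apart.

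The first question was whether ribosomal protein mRNAs differed between the adenoma and the pre-metastatic stage. In PM-LMSCs against A-LMSCs, 0 of the 78 members passed the limma threshold (adjusted p under 0.05), where 0.0389% of the 10279 genes tested did, and 0 had an unadjusted p under 0.05 (6.53% of all genes). The median log2 fold change was -0.01, against 0.01 for all genes tested, and 44 of 78 were below 0 (47.4% of all genes were). This direction rested on single libraries: the median was 0.04 with 27 below 0 without PM-LMSC replicate 1, and -0.08 with 48 below 0 without PM-LMSC replicate 2. With the replicate number as a block 0 members passed, where 0.292% of all genes did. PM-LMSCs lay wholly above A-LMSCs in 13 members (19.6% of all genes did) and wholly below in 11 (19.7% did). The members' log2 fold changes ran from -0.19 to 0.23, a narrow band on either side of 0.

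Toward its ends lay Rpl23a (0.23), Rps12 (0.20) and Rpl34 (0.18) on the higher side, and Rpl21 and Rpl7l1 (-0.19 each) on the lower. Rps12, a small subunit protein known from cell competition in flies, had 75.6 and 78.3 FPKM in A-LMSCs and 91.0 and 86.6 in PM-LMSCs, which did not overlap. Rpl23a had 2.90 and 2.36 FPKM in A-LMSCs and 2.94 and 3.59 in PM-LMSCs. Its copy Rpl23a-ps3 had 314 and 299 against 277 and 263, in the opposite direction, and with the 2 rows summed the log2 fold change of Rpl23a was -0.17.

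M-LMSCs were then compared with A-LMSCs, the same 2 A-LMSC libraries as in the comparison before. Most members were somewhat lower, by a small amount, and none passed the threshold. The limma test called 0 of 78 members, where 0.0681% of all genes were called. At an unadjusted p under 0.05, 6 members were lower (6.96% of all genes were) and 0 were higher (7.68%). The median log2 fold change was -0.16, against 0.03 for all genes, and 63 of 78 members were below 0, as were 45.3% of all genes. The range ran from -0.54 to 0.24, and the lowest adjusted p of a member was 0.216. With 1 library left out, the members' median was -0.08 (M-LMSC replicate 1), -0.22 (M-LMSC replicate 2) or -0.15 (either A-LMSC library). The count of lower members at an unadjusted p under 0.05 also changed with the library left out. With the replicate number as a block, 17 members were lower at an unadjusted p under 0.05 (10.7% of all genes were), and again 0 passed after adjustment, where 3.92% of all genes did.

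The lower values were spread over both subunits. In the small subunit 26 of 31 members were lower, with a median log2 fold change of -0.17. In the large subunit it was 34 of 44, with a median of -0.14, and in the stalk 3 of 3, with a median of -0.22. Both M-LMSC libraries lay below both A-LMSC libraries in 40 of the 78 members (51.3%), against 24.4% of all genes, and above them in 6, against 27.1%. The 6 were Rps21, Rpl5, Rpl22l1, Rpl7, Rps25 and Rps27, of which Rps21 is named after its values were seen.

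In the rows of the genes themselves, Rpl13a had the largest difference on the log2(FPKM + 1) scale. With 0.1 added in place of 1, Rpl29 had the largest, at -0.60. Rpl13a is a large subunit protein that also belongs to an inhibitor of translation in interferon-treated monocytes. Its levels were 1117 and 1148 FPKM in A-LMSCs, 1080 and 1107 in PM-LMSCs and 672 and 901 in M-LMSCs. Every M-LMSC value was under every other value, and the gap between the 2 M-LMSC libraries was wider than that within the earlier stages. The log2 fold change of M-LMSCs against A-LMSCs was -0.54 (SE 0.16, adjusted p = 0.225, limma).

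Rps14, a small subunit protein known from the anemia of 5q loss, had 287 and 358 FPKM in A-LMSCs, 288 and 282 in PM-LMSCs and 200 and 278 in M-LMSCs, a log2 fold change of -0.44 (SE 0.19). Rpl27, whose loss causes Diamond-Blackfan anemia, had 22.4 and 23.3, 23.2 and 25.1, and 14.5 and 19.4 FPKM (-0.42, SE 0.15, adjusted p = 0.280, limma). Its copy Rpl27-ps3, with the larger value of 473 FPKM on average, had 468 and 471, 487 and 515, and 423 and 474 FPKM, and in this row M-LMSC replicate 2 lay above both A-LMSC libraries. So the row of Rpl27 separated M-LMSCs from A-LMSCs and that of its copy did not.

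Rpl29, a large subunit protein also found at the cell surface as a heparin-binding protein, had 2.27 and 2.14 FPKM in A-LMSCs, 2.49 and 2.46 in PM-LMSCs and 1.27 and 1.58 in M-LMSCs. It had the lowest adjusted p of the members in this comparison (log2 fold change -0.40, SE 0.12, adjusted p = 0.216, limma). Rpl28, whose exons overlap those of Ube2s on the other strand, had 6.22 and 7.32, 5.98 and 7.46, and 4.28 and 5.35 FPKM (-0.42, SE 0.16). Rpl32, at 306 and 316, 264.5 and 321, and 247 and 228 FPKM, was lower with a log2 fold change of -0.39 (SE 0.13) and is named after its values were seen. In all of these M-LMSCs did not overlap with A-LMSCs.

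Rps6, the small subunit protein that the S6 kinases phosphorylate, had 7.12 and 7.69 FPKM in A-LMSCs, 8.20 and 8.63 in PM-LMSCs and 5.89 and 5.98 in M-LMSCs. Its M-LMSC libraries were close to each other and below all others (log2 fold change against A-LMSCs -0.28, SE 0.11, adjusted p = 0.323, limma). Rpsa, a small subunit protein first described as a laminin receptor, had 998 and 1086, 871 and 1051, and 712 and 951 FPKM. It was lower in M-LMSCs than in A-LMSCs without overlap, and its M-LMSC values reached into those of PM-LMSCs.

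The stalk genes were also lowest on average in M-LMSCs. Rplp1 had 2065 and 2129 FPKM in A-LMSCs, 1836 and 2159 in PM-LMSCs and 1760 and 1978 in M-LMSCs. Rplp0, the base of the stalk, had 559 and 566, 466 and 578, and 427 and 538 FPKM, and Rplp2 had 103 and 121.7, 108 and 120.9, and 97.9 and 93.9 FPKM. All 3 were lower in M-LMSCs than in A-LMSCs without overlap. Their log2 fold changes were -0.17, -0.23 and -0.22, with adjusted p-values of 0.604, 0.534 and 0.449 (limma). The Rplp0 row held 52.0% of its summed fragments, with the rest in Gm8730 at a mean of 839 FPKM. Gm8730 had 877 and 882 FPKM in A-LMSCs and 667 and 871 in M-LMSCs.

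Some members stood on the other side. Rpl22l1, a paralog that can take the place of Rpl22, had 4.07 and 4.501 FPKM in A-LMSCs, 5.24 and 4.28 in PM-LMSCs and 5.33 and 5.18 in M-LMSCs, a log2 fold change of 0.24 (SE 0.13, adjusted p = 0.425, limma). With its copy Gm15421 (14.4 and 18.8, 21.1 and 16.7, and 24.6 and 24.98 FPKM), it was 0.40 (adjusted p = 0.281). Rps27 had 1.48 and 1.82 against 1.92 and 1.94 FPKM (0.15) in its own row. Summed with Rps27rt, it had 105.3 and 117.8 against 113.3 and 117.9 FPKM, and the stages overlapped. Rps25, a protein needed by some internal ribosome entry sites, had 217 and 202 against 217 and 233 FPKM (0.11). Rpl5 and Rpl11, which bind Mdm2 together with the 5S RNA, had 4.28 and 4.39 against 4.68 and 4.61 FPKM (Rpl5, 0.08) and 1.77 and 1.94 against 1.69 and 1.39 FPKM (Rpl11, -0.17) in their own rows. With their copies, Rpl5 had 73.3 and 76.3 against 71.9 and 75.9 FPKM and Rpl11 82.4 and 93.6 against 70.6 and 97.3, and both overlapped. Rps27a, which is made as a fusion with ubiquitin, had 13.6 and 13.9 against 14.98 and 13.8 FPKM (0.06).

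**Figure D3:**
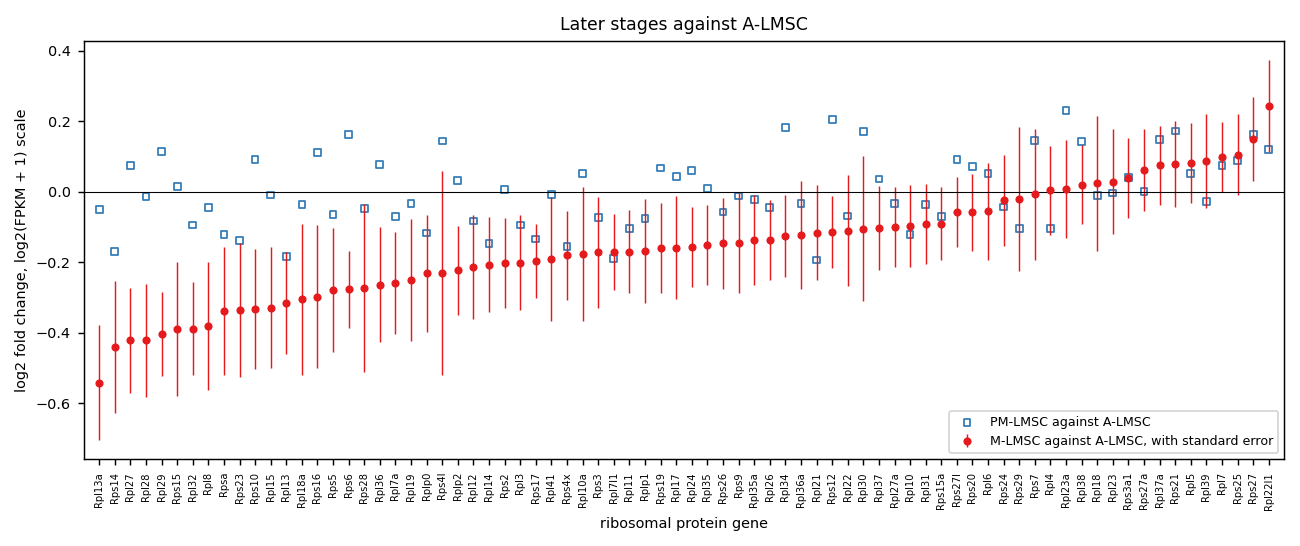
Log2 fold change on the log2(FPKM + 1) scale of the 78 members tested (2 not shown), M-LMSCs against A-LMSCs (red, with standard error) and PM-LMSCs against A-LMSCs (blue squares), ordered by the former. The red points run from -0.54 for Rpl13a to 0.24 for Rpl22l1, with 63 of the 78 below 0, and both contrasts use the same A-LMSC libraries.

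In M-LMSCs against PM-LMSCs, limma called 0 of 78 members (0.0292% of all genes). At an unadjusted p under 0.05, 8 members were lower (4.46% of all genes were) and 0 were higher (4.48%). The median log2 fold change was -0.13, against 0.00 for all genes, and 64 of 78 were below 0 (50.6% of all genes were). Leaving out 1 library of these stages gave medians from -0.23 to -0.04, the lowest without M-LMSC replicate 2. The count of lower members also changed with the library left out. With the block 14 members were lower at that unadjusted p (9% of all genes were) and 0 passed after adjustment (0.418% of all genes did). Without overlap, 27 members (34.6%) were lower, against 16.7% of all genes, and 1, Rpl7, was higher, against 17.8%.

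Rpl29 had the largest difference and the lowest adjusted p (log2 fold change -0.52, SE 0.12, adjusted p = 0.304, limma). Rpl27 (-0.50) and Rpl13a (-0.49) followed, and Rps6 had -0.44 (SE 0.11, adjusted p = 0.336). The other 4 with an unadjusted p under 0.05 were Rps10, Rps12, Rpl28 and Rpl34, of which Rps10 (-0.42) is named after its values were seen. Rpl22l1 (0.12), Rpl39 (0.11) and Rpl4 (0.11) were highest. Rpl7 had 118 and 115 FPKM in A-LMSCs, 121.8 and 124 in PM-LMSCs and 124 and 126 in M-LMSCs. Its log2 fold change against PM-LMSCs was 0.02 (adjusted p = 0.956, limma).

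The lower values in M-LMSCs were unequal between its 2 libraries. Relative to the mean of the 6 libraries, the median member was at 0.05 and 0.06 (log2) in A-LMSCs, -0.002 and 0.10 in PM-LMSCs, and -0.17 and -0.01 in M-LMSCs. M-LMSC replicate 1 was the lowest library in 46 of 78 members, and in 25.9% of all genes. The 806 other genes with at least 10 FPKM and exons under 2000 bases had their lowest median in the same library (-0.12), and the 3016 longer genes had medians between -0.01 and 0.02 in all libraries. Without M-LMSC replicate 1 the members' median was -0.08 against A-LMSCs and -0.04 against PM-LMSCs, and without M-LMSC replicate 2 it was -0.22 and -0.23. M-LMSC replicate 2 alone lay below both A-LMSC libraries in 44 of 78 members, against 37.6% of all genes, and M-LMSC replicate 1 alone in 60, against 40.3%. Among copies, Rps2-ps10 stood apart in this library, at 46.6 FPKM against 515 to 614 in the other 5, and the row of Rps2 was at 7.55 against 8.69 to 10.2 FPKM. With copies summed, Rps2 was the extreme of the members in M-LMSCs against A-LMSCs (log2 fold change -1.65).

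**Figure D4:**
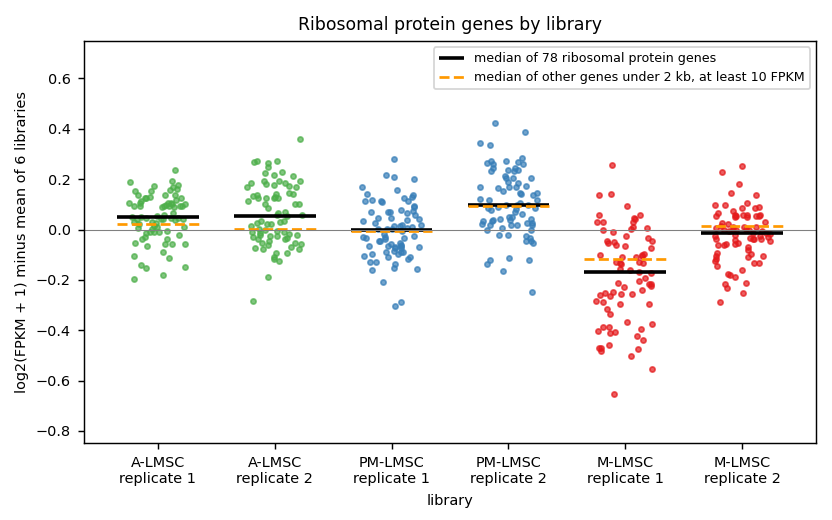
Deviation of each of the 78 members from its mean over the 6 libraries, log2(FPKM + 1), by library, with the median of the members (black) and of 806 other genes with exons under 2000 bases and at least 10 FPKM (orange, dashed). M-LMSC replicate 1 has a median of -0.17 and PM-LMSC replicate 2 of 0.10, and the orange medians move the same way in these libraries.

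Members rich in G and C were lower in M-LMSCs than the others. Across the 78 members, which are not independent replicates, Pearson's r between the GC content of the longest transcript and the log2 fold change was -0.43 for M-LMSCs against A-LMSCs, -0.47 against PM-LMSCs, and 0.04 for PM-LMSCs against A-LMSCs. The 26 members of highest GC content (at least 53.3%) had a median of -0.24 in M-LMSCs against A-LMSCs, and the 26 of lowest (at most 49.0%) one of -0.09. The same cutoffs parted the other genes tested, with medians of -0.11 (3449 genes) and 0.12 (4373 genes). After a trend on GC content and length over all genes was removed, the members' median was -0.17 against A-LMSCs and -0.12 against PM-LMSCs, close to the values before.

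**Figure D5:**
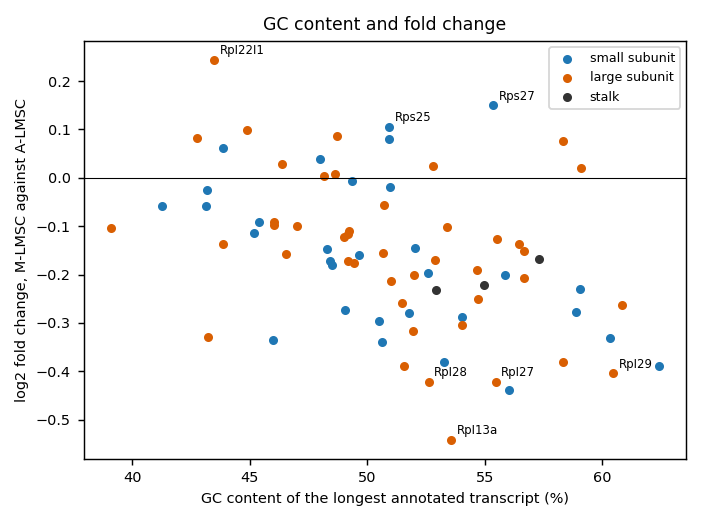
GC content (%) of the longest annotated transcript and log2 fold change of M-LMSCs against A-LMSCs for the 78 members, colored by subunit. Points slope downward (Pearson's r = -0.43), with Rpl22l1 at 0.24 among the members of low GC content and Rpl29 at -0.40 among those of high.

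Paralogs differed more in level than between stages. Rps27l, a paralog known as a p53 target, had 73.3 to 85.0 FPKM and Rps27 1.48 to 2.03, a ratio of 38.1 to 53.0. With Rps27rt added, Rps27 had a mean of 113 FPKM, above the 78.7 of Rps27l. In its own row, Rpl22l1 was at 0.179 to 0.276 of the level of Rpl22 (18.5 to 25.1 FPKM), with the highest ratio in M-LMSC replicate 2. That row held 49.1% of its summed fragments. With Gm15421 added, Rpl22l1 had a mean of 9.71 FPKM, beside 20.8 for Rpl22, of which no copy was listed. Rpl7l1, a relative of Rpl7, was at 0.306 to 0.395 of Rpl7, and Rps4l at 0.0246 to 0.0470 of Rps4x (242 to 303 FPKM). Rpl3l, Rpl39l and Rpl10l reached at most 0.148 FPKM in any library, beside their partners Rpl3 (13.7 to 18.1 FPKM), Rpl39 (27.2 to 34.2) and Rpl10 (11.9 to 14.1). Rpl36al, a gene outside the symbol rule, had 17.9 to 23.6 FPKM and Rpl36a 5.15 to 6.92, with a ratio of 3.11 to 4.58.

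The median coefficient of variation over the 6 libraries was 9.92% for the 60 members with at least 10 FPKM, and 11.4% for the 3825 other genes at that level. Over the members, the median within a stage was 5.07% (A), 7.72% (PM) and 11.1% (M).

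Other genes of the translation machinery were read from lists. Of the 5 ribosomal protein genes with other names, including Fau, which is made as a fusion with a ubiquitin-like protein, 0 passed the limma test, with a median log2 fold change against A-LMSCs of 0.01 for PM-LMSCs and -0.23 for M-LMSCs. Fau had 196 and 210 FPKM in A-LMSCs, 185 and 207 in PM-LMSCs and 140.9 and 179 in M-LMSCs. Among 23 elongation factors and other mRNAs with a pyrimidine start, 0 passed and the M-LMSC median was 0.00, with Eif3e highest (0.23) and Eef1g, a subunit of the factor that recharges Eef1a1, lowest (-0.36).

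Of 61 ribosome biogenesis factors, 0 passed. In M-LMSCs against A-LMSCs 13 were lower and 0 higher at an unadjusted p under 0.05, at which 6.96% of all genes were lower here and in the lists that follow, with a median of -0.10, and the ends were Tsr1 (0.29) and Tcof1, a nucleolar activator of rRNA synthesis (-0.54). Of 20 genes of RNA polymerase I and rRNA transcription, 0 passed and 4 were lower at an unadjusted p under 0.05, with a median of -0.13, from Ttf1 (0.21) to the polymerase subunit gene Znrd1 (-0.48). Of 21 regulators, among them Mtor, Larp1 and Myc, 0 passed and 2 were lower at that p, with a median of -0.14, from Mdm2 (0.37) to Akt1 (-0.33). Of 76 mitochondrial ribosomal protein genes, 0 passed and 9 were lower, with a median of -0.11, from Mrps33 (0.24) to Mrps34 (-0.62).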

How the data were processed

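RNA-seq of 6 libraries (A-LMSC, PM-LMSC and M-LMSC, 2 each) was read from 1 table of FPKM values that the authors deposited, with 0 unused sample columns. The submitters' processing notes name TopHat2 2.0.9 and mm10. The counter, annotation, use of strand and treatment of reads with several matches are not given in the sources used here. Counts were not recovered: 96.0% to 96.7% of low values (under 5 fragments, tolerance 0.05) were whole for genes with 1 transcript. Over all genes only 48.8% to 50.9% were, so the depths and the summed fragments are estimates.

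Values were taken as log2(FPKM + 1). All genes whose mean reached 1 FPKM were fitted with limma 3.58.1 (eBayes with trend, R 4.3.3), all 6 libraries with 1 mean per stage, two-sided, with Benjamini-Hochberg adjustment over all genes and a threshold of 0.05. Fold changes on this scale understate changes of low genes. Values of a few genes are not reported here. The script was tested on simulated data. The study used separate mice, but the labels do not tie libraries to them, so p-values measure the spread between these libraries. Libraries of the same number deviated together (r = 0.238 for A and PM, 0.307 for A and M, 0.491 for PM and M over all genes tested, and 0.044, 0.026 and 0.424 over the members), so the number was also used as a block.

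Copies were found with blastn 2.17.0, and the 40% cover was chosen after the data were seen. Promoters were from RefSeq, and coordinates from GENCODE M21. For 38 members exons overlap those of another gene. Members and lists were chosen with earlier results of these data known. Named genes were the extremes of level and of each comparison, paralog pairs, the stalk, Rpl5, Rpl11, Rps6, Rpsa, Rps27a and those nearest the filter. Rps2, Rpl12, Rpl35 and the copies were named after their values were seen.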

Additional observations from a re-analysis of the deposited data

How the results depend on the processing

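The number of libraries and depths of 14800000 to 20800000 fragments limit what could be seen, most at members near 1 FPKM. Under 17 alternatives, 0 members passed the threshold in any comparison, and the lowest adjusted p of a member was 0.068. The count over all genes did depend on the processing. Without the filter on low values it was 1 for PM-LMSCs and 3 for M-LMSCs against A-LMSCs, and with only the stages compared in the fit 21 and 1. The replicate block follows the library numbers, for which the labels state no pairing across stages. With it the count was 30, 403 and 43 (M-LMSCs against PM-LMSCs last), and with block and copies summed 30, 403 and 45. With the GC content and length trend removed it was 16 for M-LMSCs against A-LMSCs, and with the block as well 289, and 6 against PM-LMSCs. Leaving out 1 library of the stages compared gave 1 to 2 for PM-LMSCs against A-LMSCs, 2 to 90 for M-LMSCs against A-LMSCs and 2 to 25 for M-LMSCs against PM-LMSCs, and leaving out one of the remaining stage gave 26 to 28, 1 and 4. A stage with 1 library left was assumed to vary like the others. With copies summed, the share of the FPKM total was 8.04%, 7.77% and 7.08% for A-, PM- and M-LMSCs. Of 270 alternative values for the 18 extremes of the comparisons, 268 kept their direction and side of the threshold. The exception was Rpl23a in PM-LMSCs against A-LMSCs, -0.17 with copies summed, with and without the block. Rpl5, outside those 18, also turns in M-LMSCs against A-LMSCs when copies are summed. Chosen after seeing the data, leaving out M-LMSC replicate 1 or 2 gave 34 and 54 members below PM-LMSCs without overlap (33.2% and 36.1% of all genes). The causes were not tested.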
